A study of Bos taurus and Felis catus with 14 samples.

Results

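The hairpins described here are new microRNA precursors of cow and cat that gave a mature product from each side of the hairpin. They were chosen by name and by product: the predicted precursor had a name of the type bta-Novel34 or fca-Novel13, which holds no family and at most a number, and both a 5p and a 3p product derived from it. There were 236 such hairpins among 1305 predicted loci, 159 of 810 in the cow (Bos taurus) and 77 of 495 in the cat (Felis catus). Small RNA was sequenced from 10 bovine tissues (retina, iris, optic nerve, brain stem, dental pulp, oral papillae, submandibular lymph node, bone marrow, corium and penis), 1 library each, from 3 steers, with 8 libraries from 1 animal. In the cat, skin and muscle gave 2 libraries each, from 3 animals by the labels. No treatment or genotype separated the libraries. The steers were Angus, with tissue taken just after slaughter, and the cats were neutered male domestic short hairs that were old and not all of 1 age, with tissue from a biobank. The authors pooled the libraries of a species and ran miRWoods, a predictor built on random forests, so each species had 1 set of calls and no replicate. The deposited sets give positions, strands and names, with no read count or score per locus. Expression per locus and tissue, which the authors tabulate elsewhere, was not used here. A hairpin may rest on very few reads.

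A microRNA gene is transcribed as a long primary RNA that folds back into a hairpin. Drosha cuts the stem in the nucleus, Dicer removes the loop in the cytoplasm, and the resulting duplex holds a strand from the 5' side (5p) and another from the 3' side (3p). Usually 1 strand is loaded into an Argonaute protein and guides it to target messages, while the other is degraded. Products from both arms, with a loop between them and lengths near that of a Dicer product, are the usual evidence that a small RNA came from such a hairpin. Sequences of the members were not used here.

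Membership required both arms, so the share that follows is a description of the rule. Of all hairpins with such a name, the new hairpins, 159 of 283 in the cow (56.2%, exact 95% interval 50.2 to 62%) and 77 of 187 in the cat (41.2%, 34 to 48.6%) had products from both arms. Known loci, meaning those with a plain microRNA name, had both arms in 373 of 412 cases in the cow (90.5%) and 174 of 203 in the cat (85.7%). Loci whose name adds a member to a known family had both arms in 36 of 90 cases in the cow and 65 of 90 in the cat. The remaining new hairpins gave a single product, which lay on the 3p arm in 84 of 124 cases in the cow (67.7%) and 74 of 110 in the cat (67.3%). Every member had exactly 1 product per arm. Intervals here and below cover counting error only, since loci of 1 set are not replicates, and no test was made across loci.

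The loop was taken as the stretch between the end of the 5p product and the start of the 3p product. Its median was 16 nt in the members of both species (95% interval 16 to 17 nt in 159 bovine and 15 to 19 nt in 77 feline hairpins). Known loci with both arms had the same median of 16 nt in each species. Loop size is among the features that the caller scores after training on annotated microRNAs, so this likeness may be built into the calls. The members differed in spread. In the cow the middle part of the distribution (from the first to the last quartile) ran from 14 to 20 nt in members and from 14 to 18 nt in known loci, with an SD of 6.76 against 4.97 nt. In the cat it ran from 15 to 22 nt against 14 to 18 nt, with an SD of 8.97 against 4.31 nt.

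**Figure D1:**
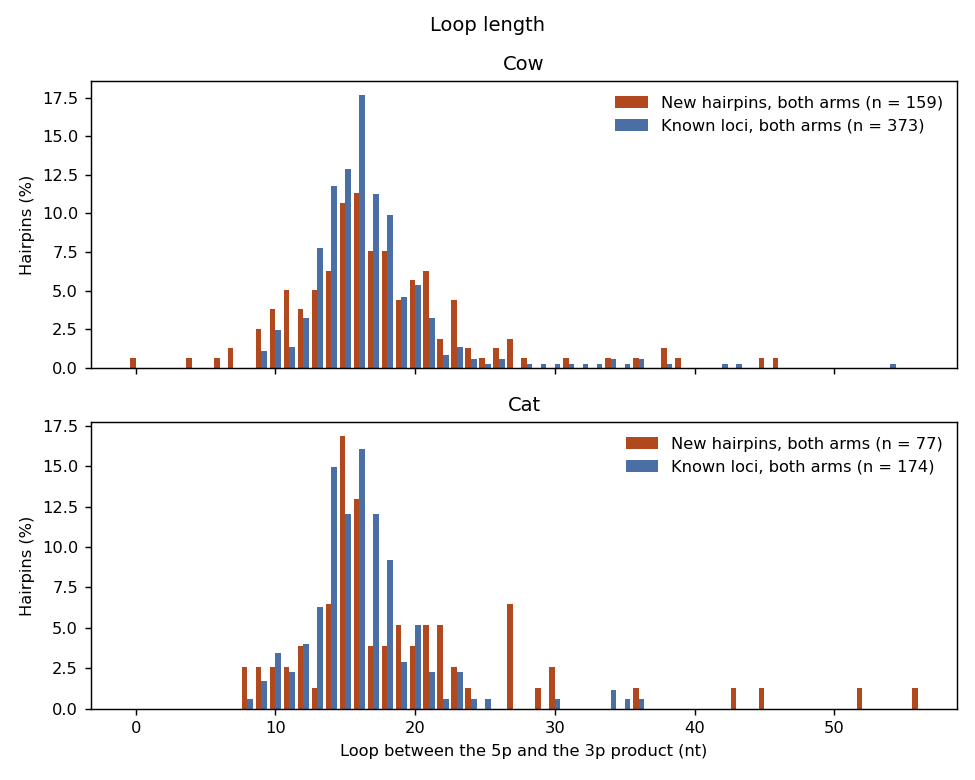
Loop length in nt (horizontal axis) against the percentage of hairpins (vertical axis), for new hairpins with both arms (orange) and known loci with both arms (blue), in the cow above and the cat below. All 4 distributions have a median of 16 nt. A larger share of the new hairpins has long loops, most visibly in the cat, where 5 lie at 27 nt and no known locus does.

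The wider spread lay mostly on the side of long loops in the cat, and on the sides of both long and short loops in the cow. Shares by loop length were not among the planned results and were added after the data were seen. A loop of 20 nt or more was found in 46 of 159 bovine members (28.9%, 22 to 36.6%) and in 60 of 373 known loci (16.1%, 12.5 to 20.2%). In the cat it was found in 27 of 77 members (35.1%, 24.5 to 46.8%) and in 25 of 174 known loci (14.4%, 9.52 to 20.5%). The intervals of members and known loci did not overlap in either species. Loops of 25 nt or more made up 9.43% of bovine members (5.38 to 15.1%) against 4.83% of known loci (2.88 to 7.52%), with overlapping intervals. In the cat they made up 16.9% (9.31 to 27.1%) against 3.45% (1.28 to 7.35%), with intervals that do not overlap. Loops of 12 nt or less were also more frequent in bovine members, 29 of 159 (18.2%, 12.6 to 25.1%) against 30 of 373 (8.04%, 5.49 to 11.3%), while in the cat the 14.3% of members and 12.1% of known loci had overlapping intervals. Between 13 and 19 nt lay 52.8% of bovine and 50.6% of feline members, against 75.9% and 73.6% of known loci. Further members of known families, whose hairpins resemble annotated ones by name, had loops of 20 nt or more in 4 of 36 bovine (11.1%, 3.11 to 26.1%) and 12 of 65 feline cases. These shares were lower than in the members, with intervals that overlap in both species.

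The single hairpins at the ends of this range differed widely in shape. The bovine member with the shortest loop was bta-Novel228 on chromosome 4 (99033586 to 99033633, minus strand), a 48 nt precursor in which the 21 nt 5p product ended right where the 20 nt 3p product began, a loop of 0 nt. It was followed by bta-Novel93 with 4 nt and bta-Novel110 with 6 nt. At the other end stood bta-Novel225 with 46 nt, bta-Novel155 with 45 nt and bta-Novel175 with 39 nt. Feline loops began at 8 nt, in fca-Novel165 and fca-Novel148, followed by fca-Novel84 and fca-Novel15 at 9 nt. The longest were 56 nt in fca-Novel154, 52 nt in fca-Novel35 and 45 nt in fca-Novel80. The precursor of fca-Novel154 on chromosome E3 (1854103 to 1854198, minus strand) was 96 nt long and held a 5p product of 17 nt, the shortest 5p product of any feline member, so the longest loop and the shortest product fell on 1 hairpin.

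Mature products of the members centered on 22 nt, the length typical of Dicer products. The caller was trained on annotated microRNAs and scores the median length of a product's reads. Closeness to known loci in length may therefore be built into the calls. In the cow 137 of 318 products (43.1%, 37.6 to 48.7%) were exactly 22 nt, against 50.1% (46.5 to 53.8%) of the 746 products of known loci. In the cat 68 of 154 (44.2%, 36.2 to 52.4%) were, against 51.1% (45.8 to 56.5%) of 348. The shares were lower in members, with overlapping intervals in both species. Other new loci had similar shares. Over both species together, 43.6% of the products of single-arm new hairpins were 22 nt. The share was 42.6% in new family members with both arms and 43.4% in the members. Within 20 to 24 nt lay 95% of bovine and 95.5% of feline member products, against 98% and 97.1% for known loci. Single products of new hairpins with 1 arm fell in that window in 98.4% of bovine and 97.3% of feline cases. Both products were within it in 143 of 159 bovine (89.9%, 84.2 to 94.1%) and 70 of 77 feline members (90.9%), against 96% (93.5 to 97.7%) and 94.3% of known loci.

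**Figure D2:**
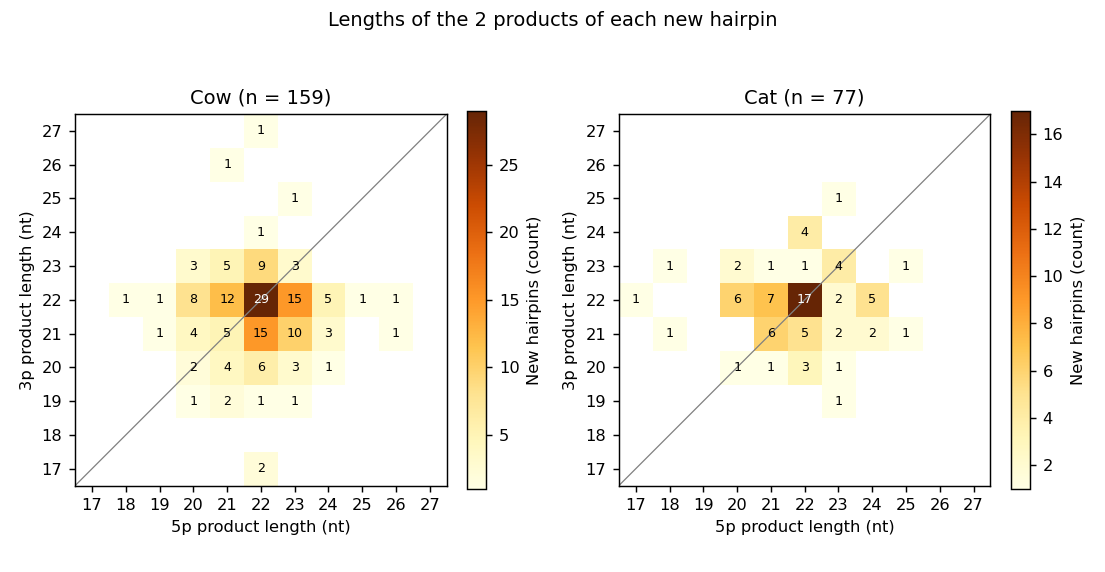
Length of the 5p product (horizontal axis, nt) against that of the 3p product (vertical axis, nt) for each new hairpin with both arms, cow left and cat right, with the number of hairpins in each cell and a line where both are equal. The cell at 22 and 22 nt is the fullest, with 29 bovine and 17 feline hairpins.

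Short products were more frequent in members than in known loci on the 5p arm. A 5p product of 20 nt or less was found in 21 of 159 bovine members (13.2%, 8.37 to 19.5%) against 16 of 373 known loci (4.29%, 2.47 to 6.87%), and in 12 of 77 feline members (15.6%, 8.32 to 25.6%) against 3 of 174 (1.72%, 0.357 to 4.96%). New family members with both arms had such a product in 5 of 36 cases in the cow (13.9%, 4.67 to 29.5%) and in 7.69% (2.54 to 17%) in the cat, with intervals that overlap those of the members. On the 3p arm such short products were found in 14.5% of bovine members against 8.31% of known loci, and in 9.09% of feline members against 10.9%, with overlapping intervals. Comparing the arms of each hairpin, the 5p product was longer in 72, the 3p product in 48 and neither in 39 of the bovine members. In the feline members these numbers were 24, 25 and 28. Known loci leaned to the 5p side, with 162, 77 and 134 in the cow and 83, 26 and 65 in the cat. The feline contrast was the clearest, since the 3p product was longer in 32.5% of members (22.2 to 44.1%) and in 14.9% of known loci (10 to 21.1%).

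Lengths outside the usual window were found at few members. The longest bovine product was the 27 nt 3p product of bta-Novel125 on chromosome 11 (266465 to 266574, minus strand), whose 5p product had 22 nt. It was followed by products of 26 nt, on the 5p arm of bta-Novel181 and bta-Novel28 and on the 3p arm of bta-Novel213. The shortest were 17 nt, the 3p products of bta-Novel32 and bta-Novel253, each beside a 5p product of 22 nt, and then the 18 nt 5p product of bta-Novel197. Feline products ended at 25 nt, on the 3p arm of fca-Novel80 and the 5p arm of fca-Novel14 and fca-Novel87. After fca-Novel154 the shortest feline products were the 18 nt 5p products of fca-Novel20 and fca-Novel54. In all of these short cases the other arm gave a product of 21 to 23 nt.

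Each hairpin in the deposited sets lists its products in an order that does not follow position or arm. In known loci that order was compared with textbook knowledge of 47 families with a dominant arm, the arm whose strand is the usual guide. The dominant arm came first in all 46 bovine loci with a dominant 5p arm (let-7 and mir-21 among them), in all 46 with a dominant 3p arm (mir-1 and mir-133 among them), in 36 of 36 feline loci of the first kind and in 29 of 30 of the other. The exception was fca-mir-221. No source used here says what the order means, so in the members it is reported as order of listing alone. The 5p product was listed first in 74 of 159 bovine members (46.5%, 38.6 to 54.6%) and in 46 of 77 feline members (59.7%, 47.9 to 70.8%). Known loci had 53.6% and 53.4%, inside both intervals.

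The order of listing went with the way the precursor's ends lay around its products. In members with the 5p product listed first, the precursor ran exactly 3 nt past the 3p product in 45 of 74 bovine (60.8%) and 27 of 46 feline hairpins (58.7%). With the 3p product listed first, it ran exactly 1 nt past it in 49 of 85 bovine (57.6%) and 21 of 31 feline hairpins (67.7%), and 3 nt past it in 8 and 2. No member with 5p first had 2 nt there, against 15 bovine and 6 feline members with 3p first. At the other end, the 5p product began 0 to 2 nt into the precursor in 77% of bovine and 80.4% of feline members with 5p first, and in 35.3% and 25.8% of those with 3p first. Known loci had the same arrangement, with 3 nt after the 3p product in 71% and 74.2% of loci with 5p first and in 5.2% and 2.47% of those with 3p first. The ends of a precursor are set by the caller, so these offsets describe how the deposited spans were drawn and not the cut sites in the cell.

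**Figure D3:**
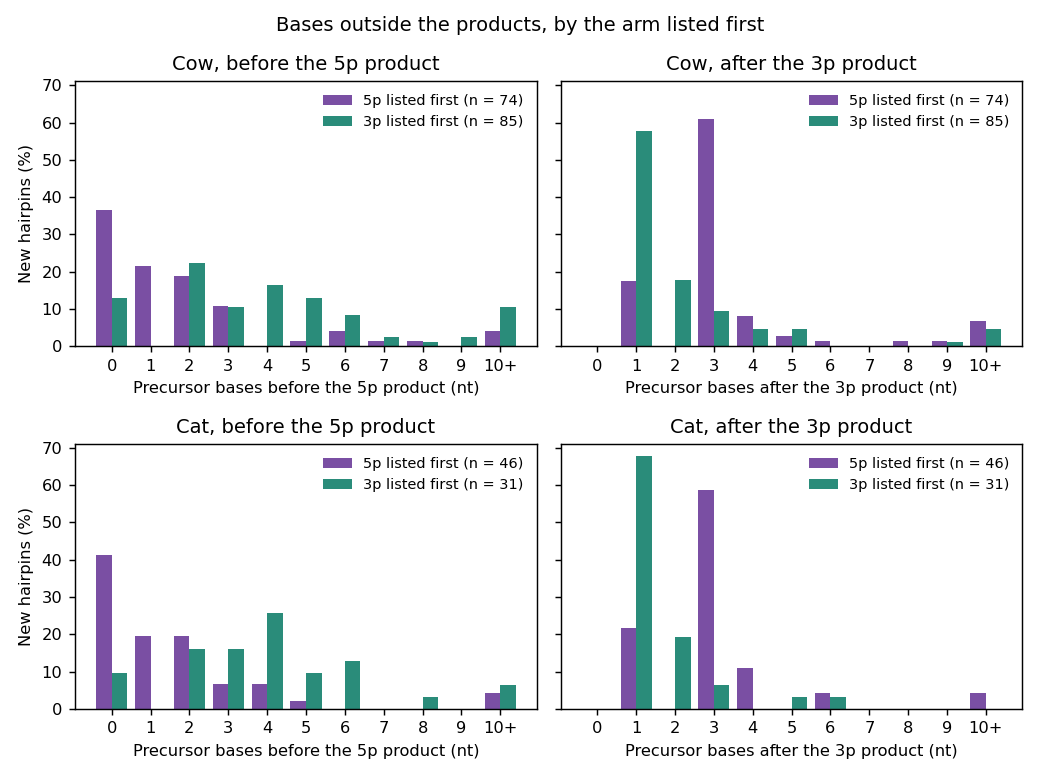
Number of precursor bases before the 5p product (left) and after the 3p product (right), in nt, against the percentage of new hairpins with both arms, by the arm listed first (purple for 5p, green for 3p), cow above and cat below. The bases after the 3p product peak at 3 nt when the 5p product is listed first and at 1 nt when the 3p product is.

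Long flanks were uncommon in the members. At least 10 nt on either side of the products was found in 14 of 159 bovine members (8.81%, 4.9 to 14.3%) against 71 of 373 known loci (19%, 15.2 to 23.4%), and in 4 of 77 feline members (5.19%, 1.43 to 12.8%) against 22 of 174 (12.6%, 8.1 to 18.5%), where the intervals overlap. In known loci nearly all of these had the 3p product first: 66 of 173 in the cow and 22 of 81 in the cat. Among members with 3p first, 9 of 85 bovine and 2 of 31 feline hairpins had such a flank. New family members with both arms had one in 4 of 36 bovine cases (11.1%, 3.11 to 26.1%). Over both species they had one in 10.9% of cases (5.56 to 18.7%), against 7.63% of members (4.58 to 11.8%). These intervals overlap those of the members, so a low share was not particular to them. The longest precursor of all members was bta-Novel73 on chromosome 19 (57793786 to 57793931, minus strand), with 146 nt, of which 24 nt lay before the 5p product and 62 nt after the 3p product, around an ordinary core of 23 nt, a 15 nt loop and 22 nt. Precursors as a whole had a median of 66 nt in members of either species, next to 66 nt in bovine and 65 nt in feline known loci.

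The order of listing was also compared with product length. Among members with 3p first, the first product was the longer in 33 of 85 bovine (38.8%, 28.4 to 50%) and 14 of 31 feline hairpins (45.2%, 27.3 to 64%). In known loci with 3p first it was so in 35 of 173 (20.2%, 14.5 to 27%) and 12 of 81 (14.8%, 7.9 to 24.4%), lower in both species with intervals that do not overlap. In the cow this went with fewer ties: the lengths were equal in 17.6% of such members and 37.6% of known loci, and the first product was the shorter in 43.5% (37 of 85) and 42.2%. In the cat the first product was the shorter in 16.1% of members and 50.6% of known loci, with ties in 38.7% and 34.6%. New family members with 3p first had the longer product first in 7 of 20 bovine (35%, 15.4 to 59.2%) and 6 of 26 feline cases (23.1%, 8.97 to 43.6%). These intervals overlap those of members and of known loci. With 5p first, the first product was the longer in 47.3% of bovine and 41.3% of feline members, close to the 44.5% and 45.2% of known loci.

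All 30 bovine chromosomes named in the set held a member. Chromosome 7 had most, with 15 members among its 48 loci, followed by chromosome 19 with 14 of 53, chromosome 25 with 10 of 28 and chromosome 10 with 9 of 26. Chromosomes 2, 12, 14, 15 and 27 had 1 each. Chromosomes 19 and 7 were also rich in known loci, with 27 and 23. On the 2 chromosomes with the most known loci, members made up a smaller share of the loci, a share that many known loci lower. Chromosome 21, with 52 known loci, had 7 members among 66 (10.6%, 4.37 to 20.6%), and the X chromosome, with 49, had 4 among 62 (6.45%, 1.79 to 15.7%), whereas members made up 31.2% (18.7 to 46.3%) of the loci on chromosome 7 and 38.9% (17.3 to 64.3%) of the 18 on chromosomes 17 and 23 each.

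In the cat 20 of 28 sequences held a member. NC_018729.2 and chromosome C1 had 8 each, among 23 and 37 loci, and chromosome B1 had 7 of 19. The sequence with the most loci, NC_018728.2, had 2 members among 50 (4%, 0.488 to 13.7%), beside 29 known loci. NC_018741.2 had 1 among 43 (2.33%, 0.0589 to 12.3%). A further 2 members lay on unplaced sequences, NT_217325.1 and NT_291189.1, where each was the single predicted locus, so these 2 have no measured neighbor. Chromosome lengths of the build were not used here, so these are shares of loci and not densities.

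**Figure D4:**
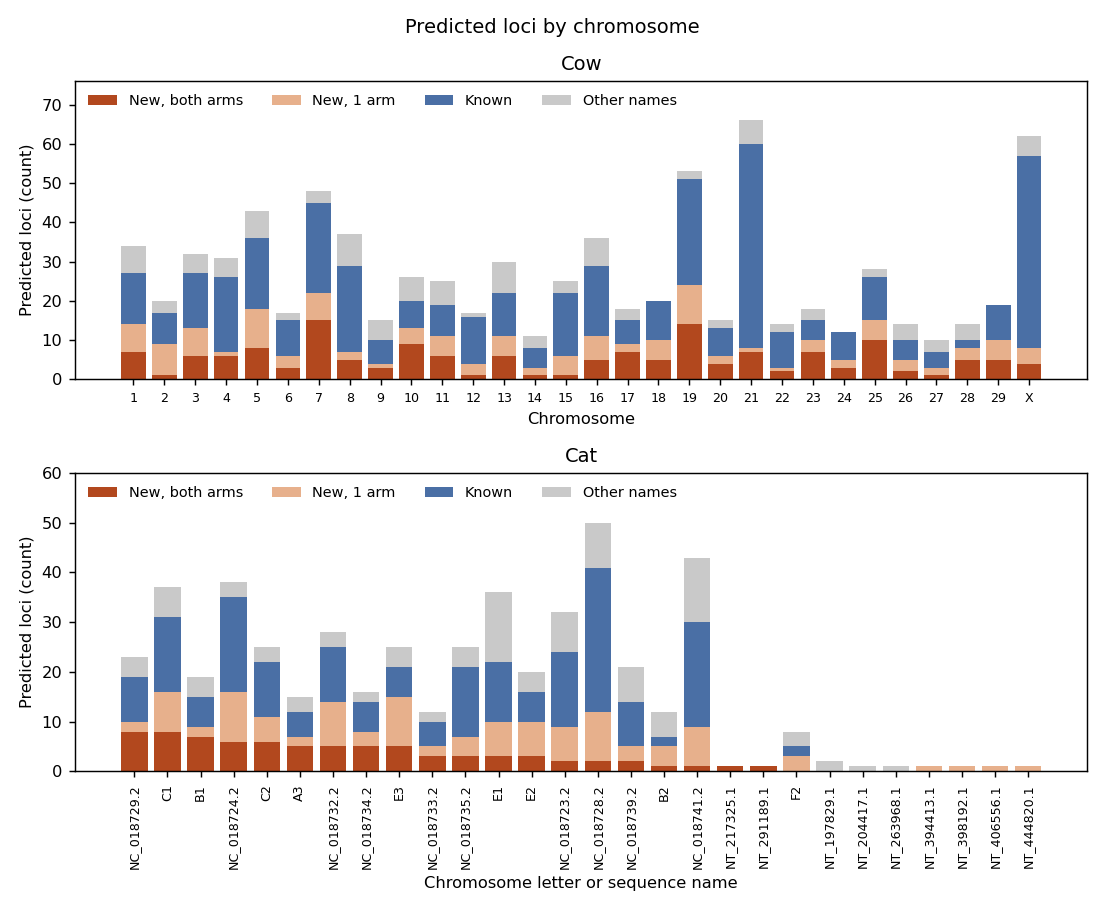
Number of predicted loci (vertical axis) on each bovine chromosome (above) and each feline sequence (below, by chromosome letter where position-based names give one), stacked as new hairpins with both arms, new hairpins with 1 arm, known loci and other names. Bovine chromosomes 7 and 19 carry 15 and 14 members, while chromosomes 21 and X are tall because of their 52 and 49 known loci.

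Members lay farther from known microRNAs than these lay from each other. The median gap to the nearest known locus, on either strand, was 1786315 nt in the cow (1296520 to 2387782, n = 159) and 5587557 nt in the cat (4072665 to 8541973, n = 75). With family members and antisense loci counted as known, the feline median was 2732912 nt. For known loci with both arms the median gap to another known locus was 47236 nt in the cow (12188 to 230800) and 257897 nt in the cat (27011 to 667523). Single-arm new hairpins stood at 1970641 nt (1483671 to 2934006) and 3971407 nt (2755409 to 6071368), with intervals that overlap those of the members. New family members with both arms stood at 4117342 nt in the cow (1375235 to 7463446, n = 36), which overlaps the members' interval. In the cat they stood at 97904 nt (1376 to 3084012, n = 62), below it. So a large gap was not particular to the members. In the cow both other classes of new loci shared it, and in the cat the single-arm new hairpins did. Gaps over 1 Mb were found for 99 of 159 bovine (62.3%) and 62 of the 75 feline members with a known locus on their sequence (82.7%), against 34% and 39.7% of known loci. The feline set has fewer known loci, 203 against 412, and the gaps were not scaled for this, so they were not compared between the species.

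**Figure D5:**
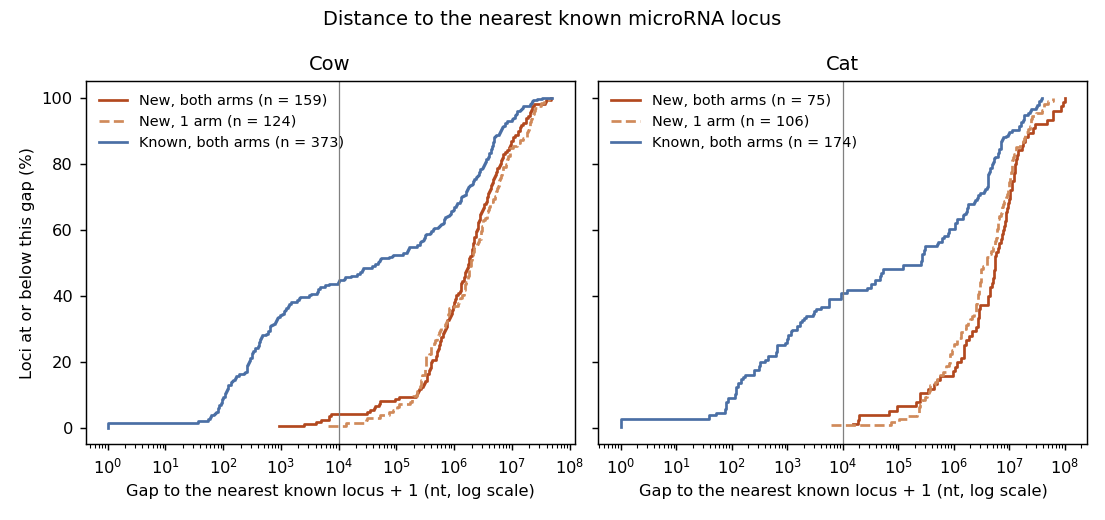
Gap to the nearest known locus plus 1, in nt on a log axis, against the percentage of loci at or below that gap, for new hairpins with both arms, new hairpins with 1 arm and known loci with both arms, cow left and cat right. The gray line marks 10 kb, below which lie 44.2% of bovine and 40.8% of feline known loci, 4.4% of bovine members and no feline member.

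Within 10 kb of a known locus, the distance at which the authors group loci into clusters, lay 7 of 159 bovine members (4.4%, 1.79 to 8.86%) and 0 of the 75 feline members that could be measured, which allows a share of up to 4.8%. The known loci themselves were that close to another in 165 of 373 bovine (44.2%, 39.1 to 49.4%) and 71 of 174 feline cases (40.8%, 33.4 to 48.5%). Single-arm new hairpins were within 10 kb in 1 of 124 and 1 of 110 cases.

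The 7 bovine members near a known locus sat beside microRNAs of very different kinds. The closest was bta-Novel34 on chromosome 20 (10188763 to 10188828, minus strand), 913 nt from bta-mir-7858 on the same strand. RefSeq's genes on ARS-UCD2.0, a different assembly that served for names and neighbors alone, place MIR7858 inside OCLN, the gene of the tight junction protein occludin. The products of bta-Novel34 were 22 nt from either arm around a 16 nt loop. Next came bta-Novel208, 2552 nt from bta-mir-140, a microRNA of cartilage, with products of 20 and 23 nt and a 21 nt loop. On chromosome 19, bta-Novel63 (27575434 to 27575496, minus strand) lay 4021 nt from bta-mir-324, whose gene lies inside ACADVL, which encodes an enzyme of fatty acid oxidation. On chromosome 5, bta-Novel298 (116343231 to 116343295, minus strand) lay 4982 nt from bta-mir-1249, whose gene lies inside KIAA0930.

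The remaining members of this group were farther out. The gap from bta-Novel83 (chromosome 19, 9534051 to 9534108, plus strand) to bta-mir-142, a microRNA of blood cells, was 6671 nt, with the known locus on the opposite strand. The gap from bta-Novel40 (chromosome 20, 13415661 to 13415726, plus strand) to bta-mir-2285q, a member of a ruminant family, was 6861 nt, again on the opposite strand. The gap from bta-Novel284 (chromosome 10, 47313497 to 47313592, minus strand) to bta-mir-190a, whose gene lies inside TLN2 (talin 2, which links integrins to actin), was 7478 nt on the same strand. So 5 of the 7 shared the strand of their neighbor. The genes named hold the known microRNA in that assembly, and whether the new hairpins lie in them as well was not tested. The next bovine member, bta-Novel44, was 30453 nt from bta-mir-146b, so no bovine member had its nearest known locus between 7478 and 30453 nt away.

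In the cat the nearest pairs were all more than 10 kb apart. The gap was 15647 nt from fca-Novel168 to fca-mir-200c, an epithelial microRNA, 18928 nt from fca-Novel30 to fca-mir-125b-2 and 19466 nt from fca-Novel148 to fca-mir-199b. All 3 had products of 22 or 23 nt from both arms. The most remote members were fca-Novel29, fca-Novel24 and fca-Novel28 on chromosome A3, at 102010299, 91494522 and 84771158 nt from fca-mir-103. In the cow they were bta-Novel36 on chromosome 20, at 47586133 nt from bta-mir-449a, bta-Novel142 at 38819123 nt from bta-mir-6520 and bta-Novel125 at 38215929 nt from bta-mir-217.

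Counting any predicted locus, 16 bovine (10.1%, 5.86 to 15.8%) and 11 feline members (14.3%, 7.35 to 24.1%) had a neighbor within 10 kb, and the other 143 and 66 had none, among them the 2 feline members that are alone on their sequence. Leaving out overlaps on opposite strands, only a few members had a new hairpin as neighbor. These were bta-Novel68 (146 nt from bta-Novel71), bta-Novel155 on chromosome 24 (31867510 to 31867615, plus strand, 284 nt from bta-Novel156), bta-Novel83 (6790 nt from bta-Novel88) and fca-Novel13 (3204 nt from fca-Novel10). Each pair shared a strand, and in each the neighbor gave a product from a single arm. From member to member, the median gap was 3720816 nt in the cow and 6723298 nt in the cat.

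Overlap with a hairpin on the opposite strand accounted for the other close neighbors. It was found for 7 bovine (4.4%, 1.79 to 8.86%) and 10 feline members (13%, 6.41 to 22.6%), against 6.17% of bovine and 5.17% of feline known loci with both arms, with overlapping intervals. They formed 10 hairpin pairs, of which 7 joined 2 members: bta-Novel279 with bta-Novel291, bta-Novel126 with bta-Novel129, bta-Novel143 with bta-Novel319, fca-Novel117 with fca-Novel122, fca-Novel33 with fca-Novel37, fca-Novel65 with fca-Novel68 and fca-Novel149 with fca-Novel158. In the other pairs bta-Novel12 faced the new hairpin bta-Novel4, and fca-Novel25 and fca-Novel38 faced further members of mir-1388 and mir-28. Products overlapped in 19 cases, by 17 to 21 nt. In all 19 a 5p product faced a 3p product, as it must when hairpins overlap almost in full on opposite strands. Such members take their products from 1 stretch of genome and are not independent loci.

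Some members were singled out by the authors, in clusters, for RT-qPCR or in candidate families. Among those in clusters, the paper places bta-Novel208 with bta-mir-140 in WWP2, and bta-Novel68 with bta-Novel71 in PLD2. It describes these new bovine hairpins as of mirtron type, set against an intron's splice site. In the cat it places fca-Novel13 with fca-Novel10 in an intron of ARHGEF10L. For RT-qPCR the authors chose 5 bovine hairpins by the caller's score, by structure and by where the read stacks lay. They report expression for every one tested. All 5 of these hairpins were members. They were bta-Novel225 (X chromosome, 13909804 to 13909892, plus strand), bta-Novel286 (chromosome 10, 30135206 to 30135272, plus strand), bta-Novel144 (chromosome 21, 67089264 to 67089367, minus strand), bta-Novel250 (chromosome 28, 33437531 to 33437590, minus strand) and bta-Novel244 (chromosome 9, 75469338 to 75469404, minus strand). Their loops were 46, 16, 20, 13 and 17 nt, so bta-Novel225 had the longest loop of any bovine member while the others lay within 4 nt of the median. Their products were 20 to 23 nt long. Around its products bta-Novel144 had flanks of 22 and 18 nt in a precursor of 104 nt. None was within 10 kb of a known locus, the closest being bta-Novel144, 222085 nt from bta-mir-345.

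Of 14 loci that the authors list by such names in candidate families, 6 were members. Another 4 (bta-Novel257, bta-Novel5, fca-Novel34 and fca-Novel70) had a product from 1 arm alone, and bta-Novel229, bta-Novel184, bta-Novel140 and bta-Novel290 were not found under these names. bta-Novel115, bta-Novel202 and bta-Novel272, listed as 1 family, lay on chromosomes 29, 25 and 13 with the same outline: a 72 nt precursor on the plus strand, 6 nt before a 23 nt 5p product, which was listed first, and 3 nt after the 3p product. Their loops were 19, 19 and 15 nt and their 3p products 21, 21 and 25 nt, so in bta-Novel272 the boundary of loop and 3p product sat 4 nt farther toward the 5p arm. bta-Novel304 (100643020 to 100643084) and bta-Novel299 (100588035 to 100588103) lay on the plus strand of chromosome 5, 54916 nt apart, each with a 22 nt 5p product, 3p products of 19 and 21 nt and loops of 19 and 21 nt. The remaining one was bta-Novel284. Among the 11 members in the RT-qPCR and family lists, the arm named by the authors was the one listed first in all 11. The paper grouped families by major products, the most abundant of a hairpin, but does not say what the order of listing means.

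Between cow and cat, the members were alike in the center of the distributions and the comparison has no replicate. The median loop was 16 nt in both, the mean 17.5 ± 6.76 nt (SD, n = 159) in the cow and 19.3 ± 8.97 nt (SD, n = 77) in the cat. The intervals overlapped for the share of 22 nt products, for loops of 20 nt or more, for the arm listed first and for overlap with the opposite strand. The share of new hairpins with both arms, on which members were chosen, was 56.2% in the cow and 41.2% in the cat. It went the other way in new members of known families, 40% (36 of 90) in the cow and 72.2% (65 of 90) in the cat, and over both kinds of name together it was 195 of 373 (52.3%, 47.1 to 57.4%) and 142 of 277 (51.3%, 45.2 to 57.3%). The species also differ in number of libraries, tissues and known loci and in the names available to the annotation, and these cannot be told apart from the species.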

How the data were processed

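The 10 bovine and 4 feline libraries were trimmed with cutadapt 1.15 and aligned with Bowtie 1.2.11 by the authors (SAMtools is also named in the submitters' processing notes), who ran miRWoods once per species on the pooled libraries to call precursors and products. The deposited values are start and end positions of predicted precursors and products. They carry no count or score. Counts per locus that the authors tabulate elsewhere were not used here, so depth per locus was not analysed. The build of either genome was not given in the sources used here.

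From the positions, loops, product lengths, flanks (strand taken into account) and gaps between spans were computed. Loci were sorted by name into new (a number and no family), known (plain name), further family members and others. Medians carry exact 95% order-statistic intervals and shares Clopper-Pearson intervals. No test was made across loci. The members and lists were chosen with earlier results of these data known. Named hairpins are those within 10 kb of another locus, the 3 with the shortest and longest loops, products and gaps in each species, and those the authors list; bta-Novel73 and fca-Novel15 were named after their values were seen, as was bta-Novel44. The nearest known locus was looked up in RefSeq for 14 bovine members, some of which share it, and 13 of these lookups matched. The scripts were tested on simulated loci. Alternatives varied loop definition, length window, strand, distance and name classes. Software was Python 3.11.15, numpy 2.4.6, scipy 1.17.1 and matplotlib 3.10.9.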

Additional observations from a re-analysis of the deposited data

How the results depend on the processing

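Of 58 alternative values within a species, 42 stayed within the interval of the reported value (for counts, within 1.5 times). The difference of cow minus cat in loop length was 0 nt by the median under both loop definitions and -1.87 nt by the mean. Counting new members of known families among the new hairpins, chosen after seeing the data, gave both arms in 52.3% of cases in the cow and 51.3% in the cat. Taking the loop as precursor minus products gave a median of 22 nt in both species, since it adds the flanks, and the mean was 17.5 nt in the cow and 19.3 nt in the cat. The window of 20 to 24 nt held 95% of bovine and 95.5% of feline products. Without ties the 3p product was longer in 40% of bovine and 51% of feline members. Adding new members of known families raised the feline number from 77 to 142. The median distance to a known locus became 3348606 nt in the cow and 8839719 nt in the cat on the same strand alone, and 2732912 nt in the cat with family members and antisense loci counted as known. At 1 kb, 0.629% of bovine members lay near a known locus. Near any locus lay 17.6% of bovine members at 50 kb, and 5.03% of bovine and 1.3% of feline members on the same strand. The share of long loops, at 20 nt or more, was itself not a planned result. With long loops set at 22 nt or more, an alternative also chosen after seeing the data, the shares were 17% of bovine members against 7.51% of known loci and 26% against 6.9% in the cat. No paired analysis was possible because each species has 1 call set over all its libraries, and for the same reason no library could be left out.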
